A study of Homo sapiens with 5 samples.

Results

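The mitochondrially encoded transcripts were followed through 5 single-cell libraries of human cortical brain organoids before and after grafting. The members were 10 protein-coding genes of the mitochondrial chromosome, MT-CO1, MT-CO2, MT-CO3, MT-ATP6, MT-CYB, MT-ND1, MT-ND2, MT-ND3, MT-ND4 and MT-ND5, chosen by name as entries that every human-reference matrix lists. They were 10 of the 13 mitochondrially encoded genes listed, of 33538 genes in the D0 matrix and 36601 in each graft matrix. The other 3, MT-ATP8, MT-ND4L and MT-ND6, were counted in every mitochondrial share and are given where a result turns on them.

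All cells came from 1 line, H9 human embryonic stem cells, whose genotype the labels give as WT and which carried a channelrhodopsin-EYFP fusion at the AAVS site. Group D0 was organoids on day 42 of culture, not grafted. The 4 graft groups were organoids placed in the prefrontal cortex (PFC) or the hippocampus (HIP) of immunodeficient SCID mice and taken out, by their EYFP, 2 or 4 months post transplantation (MPT), which gave HIP_2MPT, PFC_2MPT, HIP_4MPT and PFC_4MPT. Organoids or grafts of several mice were pooled, and each group was 1 library. Host cells were still present in the graft libraries.

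Group D0 differed from the grafts in more than grafting. Its cells were released with TrypLE and those of the grafts with Trypsin-EDTA, its matrix header names Cell Ranger 3.1.0 and those of the grafts 5.0.0, and its gene reference was another one. The effects of these differences and of grafting on a value of D0 cannot be told apart. HIP and PFC served as the replicates of a graft stage. A p-value below for a stage is thus set against the spread between the HIP and PFC libraries of the 2 graft stages. A p-value for PFC against HIP is set against the change of the site difference between the stages. D0 had no replicate and was assumed to vary like the others.

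The human mitochondrial chromosome is a small circle that codes for ribosomal RNAs, transfer RNAs and core subunits of the respiratory chain, whose other subunits come from the nucleus. The ND genes code for subunits of complex I, the NADH dehydrogenase that takes electrons from NADH. MT-CYB codes for cytochrome b of complex III, the CO genes for the catalytic core of complex IV (cytochrome c oxidase), and the ATP genes for parts of complex V, the ATP synthase. Both strands are transcribed as long precursors that are cut, mostly at transfer RNAs, into single mRNAs, and these carry short poly(A) tails. The share of a cell's transcripts that is mitochondrial is widely used as a quality measure, since a cell with a broken membrane can lose cytoplasmic RNA and keep its mitochondria.

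All 10 members lie on the plus strand of chrM (GRCh38, 16569 bases, GENCODE 44 models), each without introns, and are 346 bases (MT-ND3) to 1812 bases (MT-ND5) long. In 6 of them, MT-ND1, MT-ND2, MT-ND3, MT-ND4, MT-CO3 and MT-CYB, the gene ends within a stop codon that is completed only when the poly(A) tail is added. The last 30 bases of 6 genes are given because the libraries were made with a 3′ kit, which counts a transcript from a poly(A) priming site, and because they show both kinds of ending. UMIs (unique molecular identifiers) are counted molecules. The capitals mark the stop codon, or the part of it that the genome holds.

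MT-ND1, chrM:4233-4262: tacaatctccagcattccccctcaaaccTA

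MT-ND2, chrM:5482-5511: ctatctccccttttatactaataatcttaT

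MT-ND3, chrM:10375-10404: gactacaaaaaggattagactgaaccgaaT

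MT-ND4, chrM:12108-12137: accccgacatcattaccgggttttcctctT

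MT-CO1, chrM:7416-7445: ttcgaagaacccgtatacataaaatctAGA

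MT-ATP6, chrM:9178-9207: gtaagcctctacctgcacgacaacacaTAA

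MT-ND1, MT-ND2, MT-ND3 and MT-ND4 end on 1 or 2 letters of a stop codon, while the gene models of MT-CO1 and MT-ATP6 hold a whole one. The last base of the MT-ATP6 model, chrM:9207, is also the first base of MT-CO3. Which of the 2 mRNAs keeps it is not given by the models, so the MT-ATP6 mRNA may lack the last letter of its stop codon. MT-ATP6 shares its first 46 bases, chrM:8527-8572, with the end of MT-ATP8, and MT-ND4 shares 7 bases with MT-ND4L, so the UMIs of these pairs may be split between them in a way the counts do not show. A run of A inside a transcript can also be primed. The longest run was 8 in MT-ND5 and 4 in MT-CYB, with the other members in between. The longest run of MT-ATP8, 6, and of MT-ND3, 5, are shown next, again as 30 bases with the run in capitals.

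MT-ATP8, chrM:8485-8514: gcccataaaaatAAAAAAttataacaaacc

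MT-ND3, chrM:10140-10169: aacggctacatagAAAAAtccaccccttac

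Human cells numbered 4885 in D0, 8277 (HIP) and 5952 (PFC) at 2MPT and 6913 (HIP) and 8363 (PFC) at 4MPT, after removal of cells in which the 13 genes held 15% of the UMIs or more. This limit was set on the members themselves, so the shares are also given without it below, with each test it changed. The cells held 11192237 to 55892222 UMIs in a library, the median cell 9847 UMIs in D0 and 1253 to 2759 in the grafts. Between 8 and 34 cell barcodes were shared by any pair of libraries, at most 0.404% of the smaller one. Cells were clustered on nuclear genes only and classes were named by marker genes. Summed neuron markers reached 3524 to 7468 counts per 1000000 UMIs (CPM) in the neuron-like class against at most 1943 in the astrocyte-like and progenitor-like classes, and radial glia markers reached 2129 CPM in the neuron-like cells of D0. The astrocyte-like class was less distinct. Its summed astrocyte markers ran from 446 CPM in D0 to 3707, its radial glia markers from 4319 to 8595, and in HIP_2MPT it held more of the neuron markers (1798 CPM) than of the astrocyte markers (1306). The neuron-like class also takes in the clusters of intermediate progenitor-like and inhibitory neuron-like cells. Markers of microglia, endothelium and pluripotent cells stayed at or below 8.10, 12.9 and 0.617 CPM in neuron-like cells. Cluster 10 was choroid-plexus-like in D0, at 28947 CPM of summed choroid plexus markers, but not in the grafts, at 0 to 59.5 CPM, and is called cluster 10 here. With finer clusters (resolution 1.6 in place of 0.8), 384 cells of D0 were choroid-plexus-like and 643 had no class name, against 1013 and 2. The summed markers may thus come from a part of cluster 10.

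The mitochondrial share of all UMIs was highest in PFC_4MPT and lowest in PFC_2MPT. The 13 genes held 3.99% of the UMIs of D0. At 2MPT they held 3.85% (HIP) and 2.44% (PFC), and at 4MPT 3.06% (HIP) and 7.17% (PFC). The members alone made up 94.7% to 99.5% of these UMIs. With 1 library a group no test of the libraries was made, and a binomial interval, which covers counting error only, was narrower than the last digit given in most cases (3.98% to 3.99% in D0). The middle 50% of cells lay between 5.96% and 9.12% in PFC_4MPT and between 1.72% and 3.08% in PFC_2MPT, so these ranges did not overlap. The range of D0, 1.77% to 5.20%, overlapped those of HIP_2MPT, PFC_2MPT and HIP_4MPT but not that of PFC_4MPT.

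**Figure D1:**
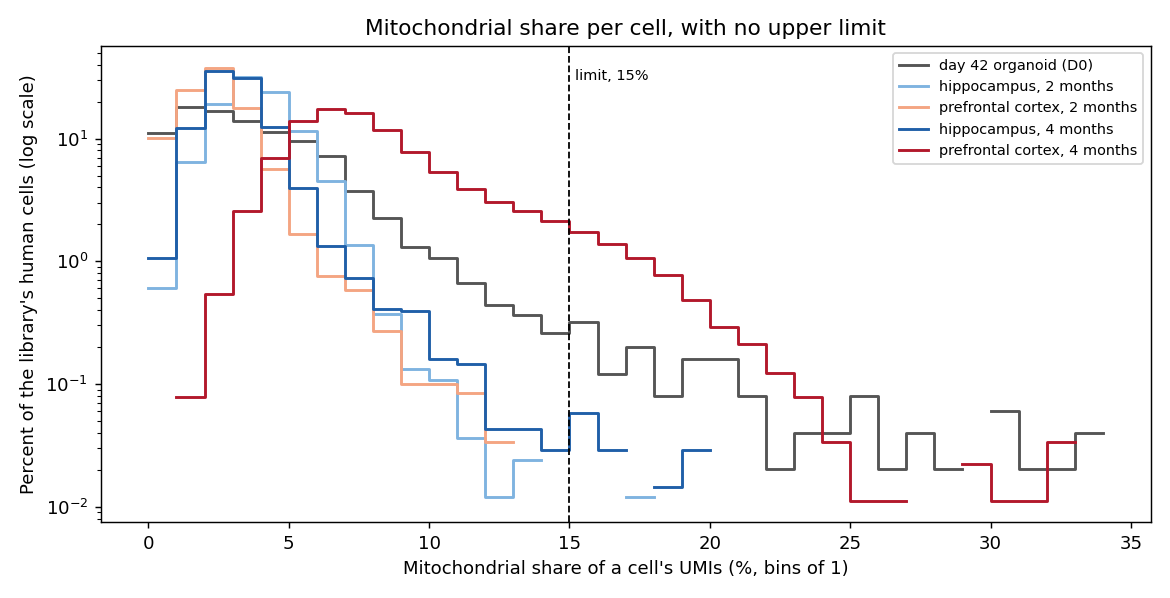
Share of cells (percent, log scale) by the mitochondrial share of each cell's UMIs (percent, bins of 1 percentage point), 1 line a library, all human cells with no upper limit. The dashed line is the limit of 15%. Empty bins are gaps, and 13 cells of D0 at 35% or more are not drawn. The peak of PFC_4MPT lies to the right of the other 4, and most cells beyond the limit are from D0 and PFC_4MPT.

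Of the complex I transcripts, MT-ND1 stood at 2360 CPM in D0, 1245 (HIP) and 696 (PFC) at 2MPT and 966 (HIP) and 2228 (PFC) at 4MPT. It was the 1 member whose highest library was D0. MT-ND2 was measured at 1550 CPM in D0, 1023 and 736 at 2MPT (HIP, then PFC, here and below) and 1419 and 3048 at 4MPT, so that both 4MPT libraries exceeded both 2MPT libraries. MT-ND3 had 2684 CPM in D0, 5033 and 2736 at 2MPT and 3685 and 8973 at 4MPT. It was the 1 member lowest in D0, although PFC_2MPT lay only slightly higher. MT-ND4 ran at 4112 CPM in D0, 2674 and 1677 at 2MPT and 2220 and 5256 at 4MPT. MT-ND5, the longest gene of the set, had the fewest UMIs, with 862 CPM in D0, 533 and 377 at 2MPT and 538 and 937 at 4MPT. Its HIP_2MPT and HIP_4MPT values did not differ beyond counting error.

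Cytochrome b of complex III, MT-CYB, was at 3005 CPM in D0, 3015 and 2294 at 2MPT and 3154 and 7012 at 4MPT. Apart from the extremes PFC_2MPT and PFC_4MPT its libraries lay close together, and D0 and HIP_2MPT did not differ beyond counting error. Of the complex IV transcripts, MT-CO1 stood at 8294 CPM in D0, 5574 and 4653 at 2MPT and 5467 and 10595 at 4MPT. MT-CO2 was at 6027 CPM in D0, 6972 and 4340 at 2MPT and 5030 and 13561 at 4MPT. MT-CO3 was measured at 6359 CPM in D0, 5635 and 3289 at 2MPT and 3722 and 10813 at 4MPT. For all 3 CO genes the order PFC_2MPT, HIP_4MPT, then D0 or HIP_2MPT, and PFC_4MPT held. MT-ATP6, a proton-channel subunit of complex V, had 4419 CPM in D0, 4791 and 2845 at 2MPT and 3387 and 7907 at 4MPT, in the same order as MT-CO2.

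Thus 9 of the 10 members were highest in PFC_4MPT and 9 of 10 were lowest in PFC_2MPT, the exceptions being MT-ND1 and MT-ND3. The highest library exceeded the lowest by 2.28-fold (MT-CO1) to 4.14-fold (MT-ND2). Each member had 5705 to 463597 UMIs in a library, so its 95% Poisson intervals were narrow. Of 40 pairs of neighbours in these orders, 2 had overlapping intervals, those named for MT-ND5 and MT-CYB. The share of all genes that separate in this way was not counted, so this is not read as a trait of the members. Such intervals cover counting error only and not the spread between libraries made alike, which no group shows. The same orders could arise from a change of the members or of the rest of the cell's RNA, which a share does not tell apart.

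**Figure D2:**
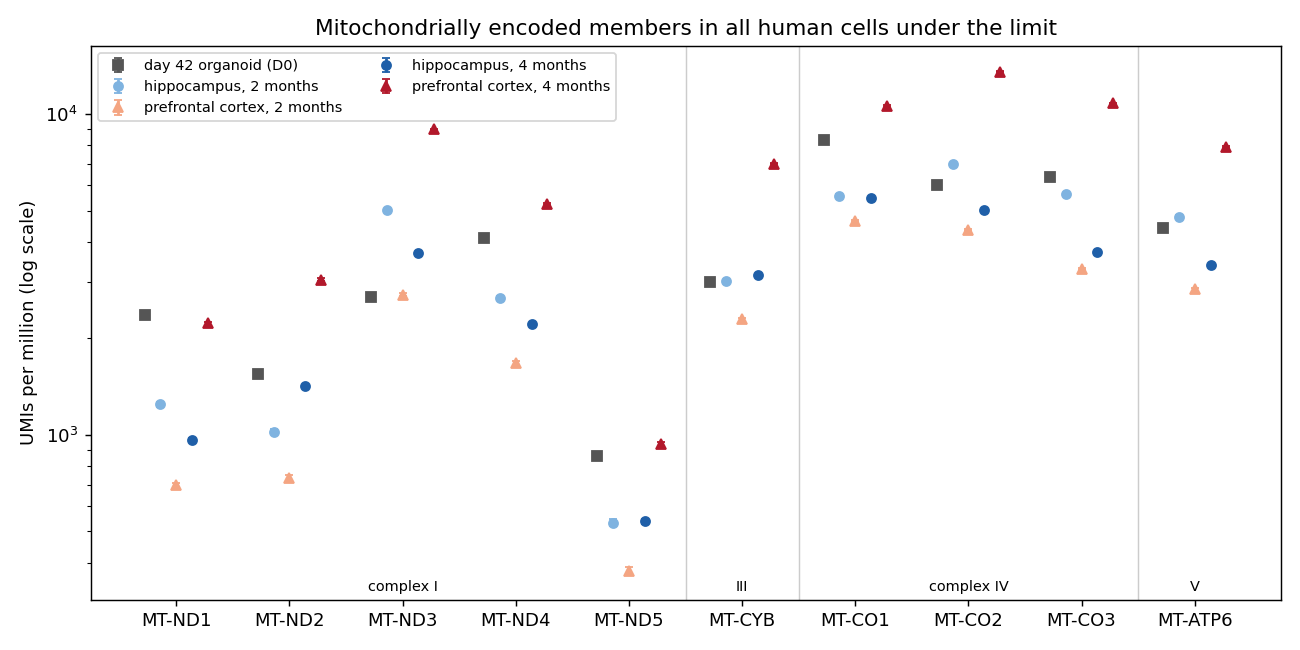
Level of each member (CPM, log scale) in all human cells under the limit, 1 point a library with its 95% Poisson interval, members ordered by complex. PFC_4MPT is the highest point for 9 of the 10 members and PFC_2MPT the lowest for 9 of 10, and MT-ND3 is the one member with D0 at the bottom.

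Per length of the gene, the order of the members differed between D0 and the grafts. In D0 the levels per kilobase of gene were 8812 CPM for MT-CO2, 8111 for MT-CO3, 7757 for MT-ND3, 6489 for MT-ATP6 and 5379 for MT-CO1. They then fell to 2984 for MT-ND4, 2634 for MT-CYB, 2469 for MT-ND1, 1488 for MT-ND2 and 476 for MT-ND5. In each graft library MT-ND3 was the highest member per kilobase, at 14547 and 7909 CPM in the 2MPT and 10649 and 25934 in the 4MPT libraries. MT-CO2 came next, at 10193, 6345, 7355 and 19826 CPM per kilobase in the same order. MT-ND5 was the lowest member per kilobase in all 5 libraries, with 208 to 517 CPM in the grafts. A 3′ count has 1 site a transcript whatever its length, so the values per kilobase set short genes higher than counts per transcript would.

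As a share of the mitochondrial UMIs, a measure that does not depend on the rest of the cell, MT-ND1, MT-ND3 and MT-ND4 separated D0 from the 4 grafts. MT-ND1 made up 5.92% in D0 and 2.86% to 3.23% in the grafts. MT-ND4 made up 10.3% and 6.88% to 7.33%, and MT-ND3, in the opposite direction, 6.73% and 11.2% to 13.1%. D0 and the grafts did not overlap for any of the 3, in all cells or within a class, and the MT-ND3 level stood at 1.14 times that of MT-ND1 in D0 against 3.82 to 4.04 times in the grafts. For each of the 3 the gap to D0 was wider than the whole range of the grafts, although D0 lay inside the range of the grafts in the summed mitochondrial level. In neuron-like cells alone MT-ND1 was at 5.77% in D0 and at most 3.32% in a graft, in progenitor-like cells at 6.13% and at most 2.97%. In the mouse cells of the same graft libraries mt-Nd3 stood at 0.246 to 0.357 times mt-Nd1. No mouse library without a graft was given, so whether the mouse ratio moved is not known.

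MT-CO1 held 20.8% of the mitochondrial UMIs in D0 and 14.5% to 19.1% in the grafts, the largest single share in D0. MT-CO2 held 15.1% and 16.4% to 18.9%, MT-CO3 15.95% and 12.2% to 15.1%, and MT-CYB 7.54% and 7.82% to 10.3%. None of these 4 overlapped between D0 and the grafts, but each gap was smaller than the range of the grafts. MT-CO1 and MT-CYB also did not overlap within any of the 3 classes. D0 is 1 library set against 4, so a value outside their range can occur for any gene. The share of all genes that lie outside it was not counted, here or for MT-ND1, MT-ND3 and MT-ND4. MT-ATP6, at 11.1% in D0, lay inside the graft range of 11.03% to 12.4%. MT-ND2 split the grafts by stage, at 2.66% and 3.02% in the 2MPT libraries and 4.63% (HIP) and 4.25% (PFC) in the 4MPT libraries, with D0 between them at 3.89%. MT-CYB (7.82% and 9.42%, then 10.3% and 9.78%) and MT-ND4 (6.94% and 6.88%, then 7.25% and 7.33%) were also higher in both 4MPT libraries. MT-ATP6 was lower in both (12.4% and 11.7%, then 11.06% and 11.03%). With 2 libraries a stage such a split can arise without a difference between the stages, and it was not tested. The share of all genes that split the stages in this way was not counted, so these splits are not read as a trait of the members. MT-ND5, at 2.16% in D0 and 1.31% to 1.76% in the grafts, did not overlap in all cells either. In astrocyte-like and progenitor-like cells its D0 value lay inside the graft range.

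**Figure D3:**
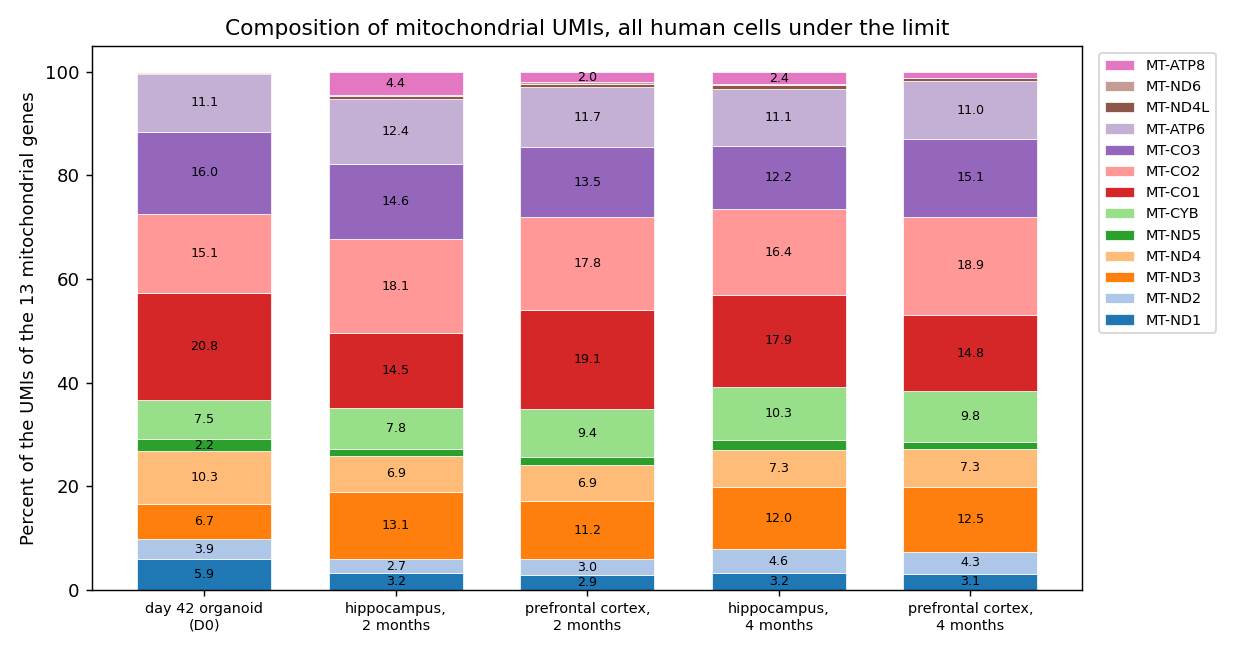
Each gene as a percent of the summed UMIs of the 13 mitochondrially encoded genes, 1 stacked bar a library, all human cells under the limit. The segments of MT-ND1 and MT-ND4 are larger in D0 than in the 4 grafts and that of MT-ND3 is smaller. The segments of MT-ND2, MT-CYB and MT-ND4 are larger in both 4MPT than in both 2MPT libraries, and that of MT-ATP6 is smaller.

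A gene outside the members differed by far more. MT-ATP8, which codes for a small subunit of complex V and shares its mRNA with MT-ATP6, had 733 UMIs in D0, or 13.1 CPM. The grafts had 1699 and 495 CPM at 2MPT and 742 and 829 at 4MPT, which was 37.8 to 129.6 times the D0 level. Since both genes are read from 1 mRNA, the MT-ATP8 UMIs were set against those of MT-ATP6, and were 0.297% of them in D0, 35.5% and 17.4% at 2MPT and 21.9% and 10.5% at 4MPT. The mouse mt-Atp8 of host cells in these libraries was at 1.08% to 4.40% of mt-Atp6. In edgeR's quasi-likelihood test (Benjamini-Hochberg adjusted) MT-ATP8 was higher than in D0 by 6.02 ± 0.74 (log2, SE) at 2MPT, adjusted p = 0.000121, and by 5.61 ± 0.73 at 4MPT, adjusted p = 0.000156. The part of the gene reference, and of how reads in the shared 46 bases were assigned, in this difference was not tested.

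MT-ND4L, on 1 mRNA with MT-ND4, ran from 117 CPM in D0 through 235 and 152 at 2MPT to 235 and 436 at 4MPT. It was higher than in D0 by 1.23 ± 0.43 (log2, SE) at 4MPT, with an adjusted p of 0.0333 in edgeR's quasi-likelihood test (Benjamini-Hochberg adjusted). MT-ND6, the complex I gene of the other strand, was at 52.6 CPM in D0, 101.5 and 65.9 at 2MPT and 49.7 and 70.9 at 4MPT, and passed no test. The 11 MTRNR2L genes are nuclear copies of the mitochondrial 16S rRNA gene and near-identical to it, so their UMIs cannot be told apart from those of that rRNA. MTRNR2L6 was listed at 0 in D0 and at 145 and 66.1, then 171 and 381 CPM in the 2MPT and 4MPT libraries, HIP before PFC, with the same first and last place among the grafts as the members. Of the 6 such genes tested, 5 were called higher than in D0 at 2MPT and 6 at 4MPT, where 27.2% and 28.7% of all genes were. In D0, however, MTRNR2L6 and MTRNR2L10 had 0 UMIs, MTRNR2L1 had 1 and MTRNR2L8 had 3. These genes could pass the filter on low counts only through the grafts, so the calls are not read as a result.

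Between the classes, neuron-like cells had the highest mitochondrial share in each library when set against astrocyte-like and progenitor-like cells. The classes were read from the same cells and libraries, so these values are a description with no test. Neuron-like cells held 4.15% in D0, 3.89% and 2.51% at 2MPT and 3.17% and 7.73% at 4MPT. Astrocyte-like cells were at 3.92%, 3.51%, 2.12%, 2.78% and 5.61% in the same order of libraries, of which the D0 value rests on 55 cells with 446 CPM of summed astrocyte markers. Progenitor-like cells stood at 3.28%, 3.67%, 2.26%, 2.78% and 5.68%. The neuron-like share was 1.06 to 1.38 times the astrocyte-like and 1.06 to 1.36 times the progenitor-like share, both ratios highest in PFC_4MPT. These ratios were not matched for depth, and the level outside human cells was not subtracted by class. In PFC_4MPT, where shallow cells had the higher shares, 5549 of 6490 neuron-like cells held over 1000 UMIs. Of the astrocyte-like cells there 498 of 505 did, and of the progenitor-like cells 513 of 520. PFC_2MPT was the lowest library and PFC_4MPT the highest within each class. In HIP_4MPT the intermediate progenitor-like cells of this class were at 3.52%, and its neurons not assigned to a subtype, at 3.107%, hardly exceeded radial glia-like cells at 3.095%. Within the progenitors of D0, radial glia-like cells had 2.87% and cycling progenitor-like cells 3.78%, while in the grafts radial glia-like cells were the higher, by 3.69% to 3.66% and 2.28% to 2.25% at 2MPT and 3.09% to 2.69% and 6.44% to 5.46% at 4MPT.

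Cluster 10 reached 5.17% in D0, above the neuron-like cells of that library, and 3.58%, 2.48%, 2.996% and 6.78% in the grafts, where it lay below the neuron-like cells. At resolution 1.6 the choroid-plexus-like cells of D0 were at 5.87% and its cells without a class name at 4.16%. Cluster 7 was given no class name. In HIP_2MPT it was at 4.21% (44 cells), above the neuron-like cells. It lay below them at 1.98% (71 cells) in PFC_2MPT, 3.09% (949 cells) in HIP_4MPT and 6.51% (677 cells) in PFC_4MPT. In PFC_4MPT neurons not assigned to a subtype were at 7.99%, intermediate progenitor-like cells at 7.30%, inhibitory neuron-like cells at 6.97%, oligodendrocyte-lineage-like cells at 6.72%, radial glia-like cells at 6.44% and cycling progenitor-like cells at 5.46%. Different clusters made up the neuron-like class of D0, where cluster 14 gave 51.2% of it, and of the grafts. Cluster 17 gave 33.4% and 33.3% of the astrocyte-like cells of the 4MPT libraries and 0.536% to 3.64% of those of the others. The radial glia-like cluster 6 gave 65.6% of the progenitor-like cells of D0 and 27.3% to 41.0% of those of the grafts. Tests of a class against D0 thus also compare different mixtures of clusters.

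**Figure D4:**
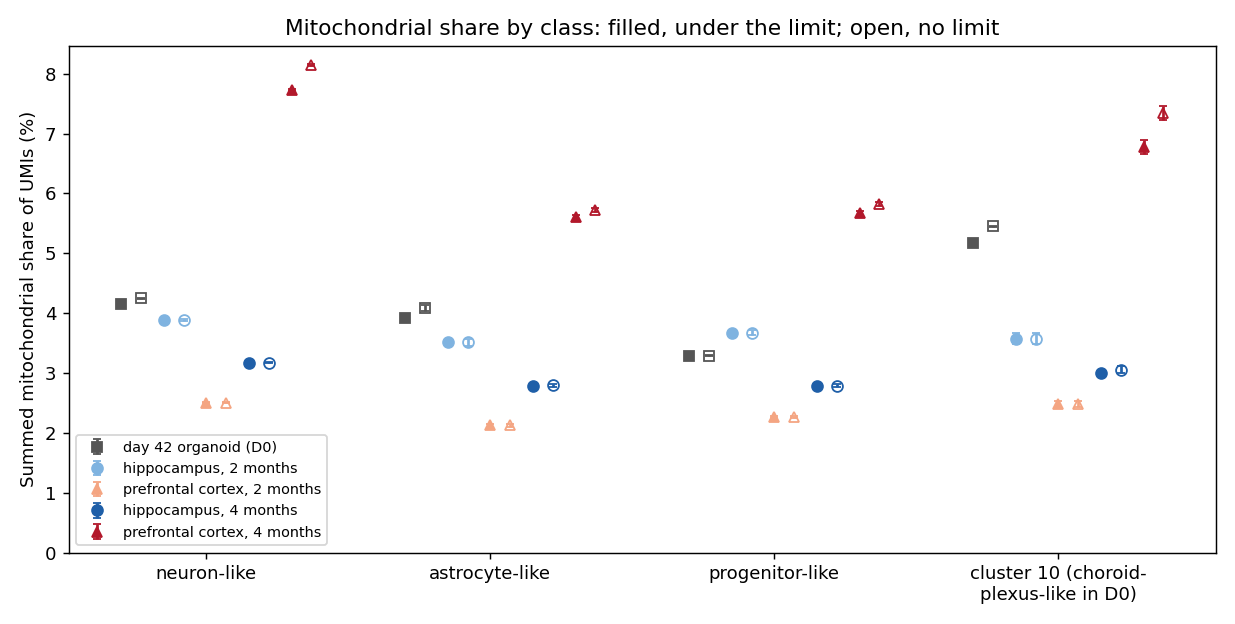
Mitochondrial share of summed UMIs (percent) by class and library, for 3 classes and cluster 10. Filled points are cells under the limit, open points all cells with no limit, and bars the 95% binomial interval. In each of the 5 libraries the neuron-like point is above the astrocyte-like and progenitor-like points, and PFC_4MPT is highest in each of the 4.

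The members did not share this order alike. MT-ND2 had the steepest gradient, with neuron-like cells at 1.45 to 2.23 times the progenitor-like level (median 1.65) and higher in 5 of 5 libraries. In PFC_4MPT it was at 3532 CPM in neuron-like, 2114 in astrocyte-like and 1771 in progenitor-like cells. Against astrocyte-like cells, MT-CO1, MT-CO2, MT-ATP6, MT-ND2 and MT-ND4 were higher in neuron-like cells in 5 of 5 libraries, with medians of 1.40, 1.19, 1.13, 1.31 and 1.07 times. MT-ND3 went the other way and was higher in neuron-like cells in 1 of 5 libraries (median 0.9502 times), and MT-CYB in 2 of 5 (median 0.976 times). Against progenitor-like cells all members but MT-ND5 were higher in neuron-like cells in 5 of 5 libraries, and MT-ND5 in 4 of 5.

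The comparison of 2MPT grafts with D0 asked how the members stood after grafting. Those with D0 share that library, and those between stages share the grafts, so they are not independent of each other. Neuron-like cells made up 41.5% of the cells of D0, 89.0% (HIP) and 81.6% (PFC) at 2MPT and 68.6% (HIP) and 77.6% (PFC) at 4MPT. Tests in all human cells thus also compare different mixtures of classes. In all human cells 5 of the 10 members passed the test and all 5 were lower, where 48.3% of all 19074 genes tested passed in either direction and 21.1% were lower. Called lower were MT-ND1 by 1.64 ± 0.47 (log2, SE; adjusted p = 0.0150), MT-ND5 by 1.28 ± 0.37 (0.0155), MT-ND2 by 1.18 ± 0.42 (0.0404), MT-ND4 by 1.28 ± 0.47 (0.0425) and MT-CO1 by 1.06 ± 0.40 (0.0480), by edgeR's quasi-likelihood test (Benjamini-Hochberg adjusted). The count called thus lay near the share of all genes that passed in either direction, though above the share called lower. It is not read as a pattern by complex. The call of MT-CO1 was lost at a limit of 0.10, in cells over 1000 UMIs and at a human share over 0.9, each of which left 4 members called. It was also lost without HIP_2MPT. A fit without 1 graft library leaves 1 library in that stage. Counts of members called in such fits are therefore not given, here or below, and are not read as a result about the members. The 5 that did not pass lay between -0.87 (MT-CO3) and 0.17 (MT-ND3), and the median of the 10 members was -0.96, against 0.07 for all genes.

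The scale decides how many members pass here. With library totals in place of the TMM normalisation factors, which correct for composition, the median of all genes moved from 0.07 to 0.44, and the calls from 5182 genes higher and 4031 lower to 6352 and 2487. On that scale 1 member was called, MT-ND1, and the median of the members was -0.59. With the TMM factors but without PFC_2MPT, the calls of MT-CO1, MT-ND2 and MT-ND4 were lost. In neuron-like cells MT-ND1 (-1.40 ± 0.46, adjusted p = 0.0299), MT-ND2 (-1.12 ± 0.41, 0.0464) and MT-ND5 (-1.23 ± 0.38, 0.0225) were called lower, 3 of 10 where 43.5% of all genes passed and 17.2% were lower. All of these calls were lost without PFC_2MPT. MT-CO1 and MT-ND4 were called lower as well without HIP_4MPT, without PFC_4MPT or by DESeq2. In progenitor-like cells MT-ND1 (-1.71 ± 0.42, adjusted p = 0.00399), MT-ND2 (-1.26 ± 0.40, 0.0195), MT-CO1 (-0.96 ± 0.29, 0.0161) and MT-ND4 (-1.06 ± 0.35, 0.0257) were called lower by edgeR's quasi-likelihood test. These were 4 of 10 where 35.7% of all genes passed and 14.6% were lower. Called were 1 of 10 without the TMM factors and 3 of 10 by DESeq2, which did not call MT-ND1. Without PFC_2MPT the calls of MT-CO1 and MT-ND4 were lost.

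At 4MPT against D0 none of the 10 members passed edgeR's quasi-likelihood test in all human cells, where 50.1% of all genes did. None had an unadjusted p under 0.05, and DESeq2 called 0 as well. The fold changes ran from -0.84 (MT-ND1, adjusted p = 0.163) to 0.96 (MT-ND3, 0.160), 5 higher and 5 lower, with a median of -0.01. Without the TMM factors the calls over all genes moved from 5470 higher and 4085 lower to 6344 and 2655, MT-CO3 turned from lower to higher, and the median of the members was 0.29. The 2 libraries of the stage stood on both sides of D0 for 7 of the 10 members, HIP_4MPT below it and PFC_4MPT above. Members were called higher without HIP_4MPT and lower without PFC_4MPT, each time with 1 library left at 4MPT. In progenitor-like cells MT-ND3 was called higher (1.11 ± 0.42, adjusted p = 0.0447), 1 of 10 where 38.7% of all genes passed and 22.4% were higher, a call that was lost without the limit on the mitochondrial share (adjusted p = 0.0506) and by DESeq2. There too, members were called higher without HIP_4MPT and lower without PFC_4MPT. In neuron-like cells 0 of 10 passed where 47.3% of all genes did, with 0 at an unadjusted p under 0.05 and 0 by DESeq2. Members were again called higher without HIP_4MPT and lower without PFC_4MPT.

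Between the graft stages, 4MPT against 2MPT, all 10 members had a positive fold change in all human cells and none passed, where 2.4% of all genes did. Their median was 0.80 (log2) against -0.01 for all genes. MT-ND2 came closest, with a mean of 2233 ± 1152 CPM at 4MPT and 880 ± 203 at 2MPT (SD, n = 2 libraries each) and a fold change of 1.42 ± 0.37 (log2, SE), adjusted p = 0.0788 in edgeR's quasi-likelihood test (Benjamini-Hochberg adjusted). MT-CYB (1.02 ± 0.37, adjusted p = 0.230) and MT-ND5 (0.77 ± 0.32, 0.300) were the other members with an unadjusted p under 0.05, and DESeq2 called 1 member, MT-ND2. PFC_4MPT carried most of this difference. Without that library the median of the members fell from 0.80 to 0.03, with 6 higher and 4 lower, and MT-ND2 stood at 0.71. With PFC_4MPT as the only 4MPT library, that is without HIP_4MPT, the median of the members was 1.34. Without HIP_2MPT it was 1.20.

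In neuron-like cells none of the 10 passed, where 0.916% of all genes did, although 6 had an unadjusted p under 0.05 and DESeq2 called 1, MT-ND2. In a fit of the grafts without D0, with the graft site as a block, MT-ND2 was called (adjusted p = 0.0359). MT-ND2 was also called without HIP_2MPT and, together with MT-CYB, without HIP_4MPT, fits that leave 1 library in a stage. In astrocyte-like cells MT-ND2 rose by 1.22 ± 0.29 (log2, SE; adjusted p = 0.0363), 1 of 10 where 2.73% of all genes passed and 2.11% were higher. Its levels there were 941 and 588 CPM at 2MPT and 1268 and 2114 at 4MPT, and the call was lost without PFC_2MPT or PFC_4MPT. More members were called higher without HIP_4MPT, where PFC_4MPT was the only 4MPT library.

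**Figure D5:**
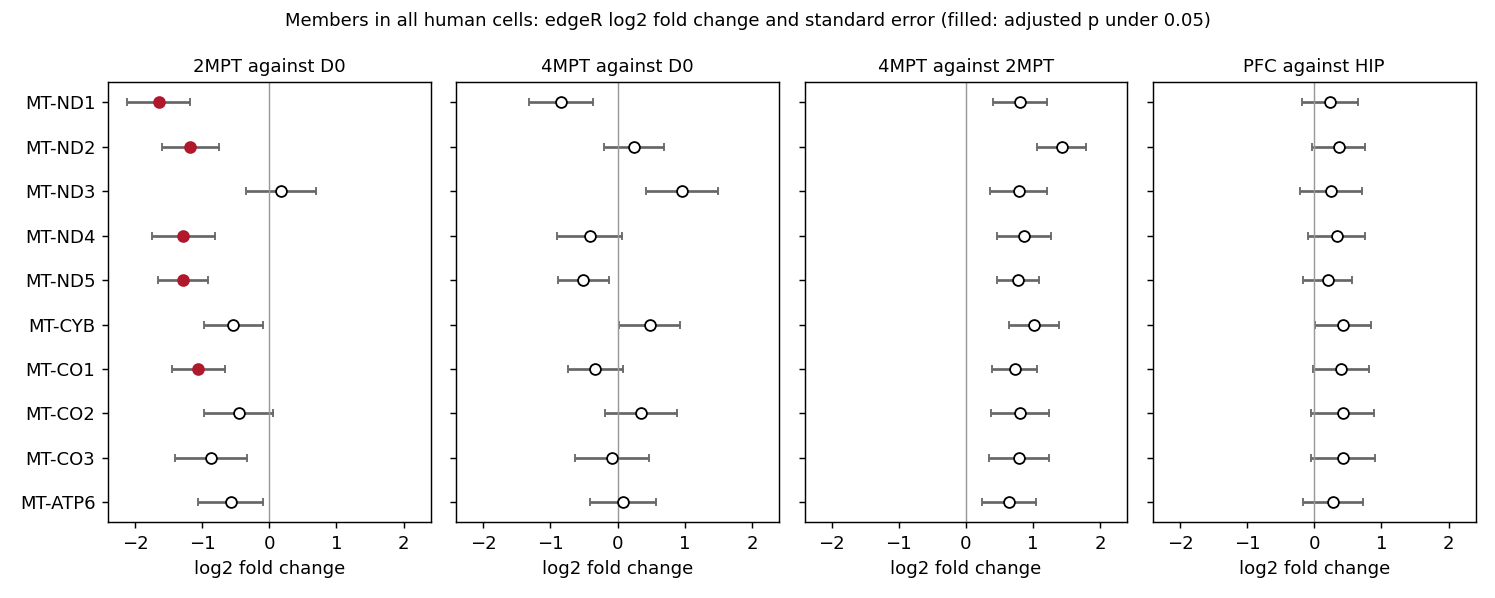
Log2 fold change of each member in all human cells with its standard error, for 2MPT and 4MPT against D0, 4MPT against 2MPT and PFC against HIP, filled where the adjusted p of edgeR's quasi-likelihood test is under 0.05. The 5 filled points are MT-ND1, MT-ND2, MT-ND4, MT-ND5 and MT-CO1 in 2MPT against D0, all below 0, and all 10 members are above 0 in 4MPT against 2MPT.

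Between the sites, PFC against HIP with the stage in the fit, all 10 members had positive fold changes of 0.20 (MT-ND5) to 0.43 (MT-CO3) and none passed, where 0.0827% of all genes did. None had an unadjusted p under 0.05 in edgeR's quasi-likelihood test and DESeq2 called 0. In neuron-like cells 0 of 10 passed (0.138% of all genes) and in astrocyte-like cells 0 of 10 (0.111%), again with 0 at an unadjusted p under 0.05 and 0 by DESeq2.

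These averages combine opposite differences at the 2 stages, and the site test takes that change between the stages as its error. At 2MPT all 10 members were lower in PFC than in HIP, by -0.88 (MT-ND3) to -0.26 (MT-CO1) on the log2 scale of CPM. At 4MPT all 10 were higher in PFC, by 0.80 (MT-ND5) to 1.54 (MT-CO3). The same held for 10 of 10 members in neuron-like, astrocyte-like and progenitor-like cells, each stage in its own direction. From 2MPT to 4MPT the 10 members were higher in PFC by 1.19 (MT-CO1) to 2.05 (MT-ND2), while in HIP they ran from -0.60 (MT-CO3) to 0.47 (MT-ND2) with 3 of 10 higher. One library stands behind each of these values, and the difference between the stages was not tested.

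Human RNA outside human cells was read from the barcodes of host cells, those with under 20% human UMIs and over 500 mouse UMIs. In them human mitochondrial UMIs made up 6.70% (HIP) and 6.002% (PFC) of the human UMIs at 2MPT and 10.7% (HIP) and 24.5% (PFC) at 4MPT, in each case above the share in the human cells of that library. A host barcode held on average 10.9, 3.81, 15.4 and 66.1 human mitochondrial UMIs, against 52.1, 61.9, 95.03 and 145 in a human cell. PFC_4MPT was thus the library with the most of the members outside human cells as well as in them. After this level was taken from each human cell, the mitochondrial share was 3.46% and 2.34% at 2MPT and 2.69% and 4.49% at 4MPT, so PFC_4MPT stayed highest and PFC_2MPT lowest.

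On that scale the 10 members were still lower in PFC at 2MPT (-0.91 to -0.16, log2) and higher in PFC at 4MPT (0.24 to 1.05), and higher at 4MPT than at 2MPT within PFC (0.53 to 1.23). The median of 4MPT against 2MPT was 0.33 in a fit of the grafts without D0, against 0.80 in the main fit with D0. That of PFC against HIP fell from 0.35 to 0.09, with 8 of 10 members higher. The mouse cells themselves had mitochondrial shares of 3.62% (HIP) and 3.03% (PFC) of their mouse UMIs at 2MPT and 4.26% (HIP) and 7.20% (PFC) at 4MPT. The host cells of PFC_4MPT were thus highest and those of PFC_2MPT lowest, the same places as for the human cells. In barcodes of human cells 69.1% of the stray mouse UMIs were mitochondrial in PFC_4MPT and 35.3% to 50.5% in the other grafts. D0 holds no host cells, and its level outside cells was not measured here. Mapping to both genomes together changed the members' UMIs little, to 99.9% to 100.03% of those with the human reference alone.

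The limit of 15% fell mainly on 2 libraries. It removed 562 of 8925 human cells in PFC_4MPT (6.30%, exact 95% interval 5.80% to 6.82%) and 89 of 4974 in D0 (1.79%, 1.44% to 2.20%). In HIP_4MPT 9 cells and in HIP_2MPT 1 cell were over it, and 0 of 5952 in PFC_2MPT, which allows a share of up to 0.0504% by the rule of 3 counts and 0.0620% by the exact interval. In PFC_4MPT 421 cells lay just under the limit, at 13% to 15%, and 280 just over it, at 15% to 17%, so that no gap lay at the limit. Whether the cells on its 2 sides form 1 distribution was not tested. In D0 these numbers were 31 and 22. The share over the limit in PFC_4MPT depended on which barcodes counted as cells, and was 2.75% (209 of 7587) in cells over 1000 UMIs and 2.05% (136 of 6632) in cells with a human share over 0.9, against 1.71% and 1.79% in D0. By class, the limit took 7.15% of the neuron-like, 1.75% of the astrocyte-like, 2.62% of the progenitor-like and 13.6% (11 of 81) of the cluster 10 cells of PFC_4MPT. In cells over 1000 UMIs it took 3.04% of the neuron-like cells and 1 of 64 cells of cluster 10, and at a human share over 0.9 2.26% and 1 of 57. In D0 it took 2.27% of the neuron-like, 0.167% of the progenitor-like and 3.43% of the cluster 10 cells.

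Without the limit the mitochondrial share was 4.09% in D0, 3.85% and 2.44% at 2MPT and 3.07% and 7.51% at 4MPT, in the same order. The neuron-like share of PFC_4MPT went from 7.73% to 8.14% and its ratio to the astrocyte-like share from 1.38 to 1.42. The cells over the limit held fewer molecules than the others. In PFC_4MPT their median was 946 UMIs and 605.5 genes, against 1840 and 1026 under the limit, and in D0 1857 UMIs and 871 genes against 9847 and 3088. MALAT1, a nuclear-retained RNA, made up 50883 CPM of the nuclear-encoded UMIs over the limit and 28501 under it in PFC_4MPT, and 63947 and 48612 in D0. The part of broken cells in these values was not tested.

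Cells over the limit had members in other proportions in D0 but hardly in PFC_4MPT. In D0, MT-CO1 was 16.7% of the mitochondrial UMIs over the limit against 20.8% under it, and MT-ATP6 13.2% against 11.1%. In PFC_4MPT, MT-CO2 was 18.4% over the limit, MT-ND3 12.2% and MT-ND4 7.11%, each inside the range of the 4 grafts under it. MT-ND1, at 3.35%, lay above that range (2.86% to 3.23%). In the D0 cells over the limit MT-ND1 was at 6.68% and MT-ND3 at 7.79%. These lay above and below the ranges of the grafts under it, as did the D0 cells under the limit. How many other genes lie outside the graft ranges was not counted.

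The depth of a cell moved with its mitochondrial share in both 4MPT libraries. In PFC_4MPT the median share fell from 12.5% in cells of 500 to 1000 UMIs through 7.74% and 6.60% to 5.29% in cells of 4000 to 8000 UMIs, and 26.4% of the shallowest cells were over the limit. In HIP_4MPT it fell from 4.92% through 3.12% in the next 2 bins to 2.69%, and to 2.47% over 8000 UMIs, with 2.82% of the shallowest cells over the limit. In D0 the deepest cells had the highest median, 3.70% over 8000 UMIs, against 2.13% to 2.89% in the shallower bins. PFC_2MPT ran from 2.44% to 2.12% and HIP_2MPT stayed between 3.50% and 3.85%. At each depth that the grafts shared, PFC_4MPT was the highest library. With cells over 1000 UMIs only, its share was 6.97%.

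Of the nuclear genes, 77 listed subunits of the respiratory chain were read beside the members. They held 2.15% of the UMIs in D0, 2.58% and 2.23% at 2MPT and 2.12% and 2.34% at 4MPT, so their sum differed little between PFC_2MPT and PFC_4MPT, where the members' sum went from 2.36% to 7.03%. At 2MPT against D0, 6 of the 77 were called higher and 15 lower (median -0.23, 55 of 77 below 0), where 27.2% of all genes were called higher and 21.1% lower. At 4MPT against D0 these were 5 and 18 (median -0.26), where 28.7% of all genes were called higher and 21.4% lower. The counts called lower thus lay near those shares and the counts called higher below them. The largest were the complex V subunit ATP5F1A, from 417 CPM in D0 to 136 to 160 in the grafts (-1.78 ± 0.26 at 2MPT, adjusted p = 0.000346), and the complex III subunits UQCRB (-1.61 ± 0.27, 0.000758) and UQCRC2 (-1.45 ± 0.25, 0.00102), by edgeR's quasi-likelihood test (Benjamini-Hochberg adjusted). Between the stages and between the sites 0 of 77 were called by that test. From 2MPT to 4MPT 30 of 77 had a positive fold change in all human cells (median -0.05), where all 10 members did, but in astrocyte-like cells 66 of 77 did (median 0.24). In PFC against HIP 51 of 77 were positive (median 0.04). The difference between these subunits and the members was not tested.

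Genes that act on mitochondrial DNA and RNA were read in a list of 29. At 2MPT against D0 5 were called higher and 5 lower, at 4MPT against D0 4 and 9 (medians -0.50 and -0.47, against 0.07 and 0.08 for all genes), and between stages or sites 0. Of all genes 27.2% were called higher and 21.1% lower at 2MPT against D0, and 28.7% and 21.4% at 4MPT. The counts are not read as a result about this list. POLRMT, the mitochondrial RNA polymerase, fell from 23.7 CPM in D0 to 11.8 and 9.78 at 2MPT and 9.37 and 9.07 at 4MPT (-1.50 ± 0.31, adjusted p = 0.00270, and -1.66 ± 0.31, 0.00133). TFAM, the factor that packs mitochondrial DNA and starts its transcription, stood at 61.9 CPM in D0, 47.4 and 56.7 at 2MPT and 52.5 and 40.1 at 4MPT and passed at 4MPT (-0.72, adjusted p = 0.0494). LRPPRC, which stabilises mitochondrial mRNAs, ranged from 41.8 to 53.2 CPM over the 5 libraries and passed at neither stage. TFAM was lowest in PFC_4MPT, where the members were highest. POLRMT was also lowest in that library (153 UMIs), with HIP_4MPT close by. LRPPRC was highest in it, at 53.2 CPM (897 UMIs), with D0 close by at 50.1. PRORP, which cuts the 5′ ends of mitochondrial transfer RNAs, was listed at 1.06 CPM in D0 and 18.9 to 28.5 in the grafts.

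Of 8 regulators of mitochondrial biogenesis, 3 were called higher and 2 lower at 2MPT against D0, and 2 and 3 at 4MPT (medians -0.29 and -0.70). With so few genes these counts are not read against the shares of all genes. NRF1 stood at 7.43 CPM in D0 and 39.7 to 47.4 in the grafts (2.28 ± 0.30 at 2MPT, adjusted p = 0.000185), by edgeR's quasi-likelihood test (Benjamini-Hochberg adjusted). ESRRG was at 2.81 CPM in D0, 10.9 and 10.2 at 2MPT and 25.8 and 14.1 at 4MPT (2.52 ± 0.43 at 4MPT, adjusted p = 0.000913). PPARGC1A, a coactivator of this programme, was at 4.28 CPM in D0 and 0.793 to 2.84 in the grafts.

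Lists that move with handling or cell damage stood as follows. MALAT1 was at 46674 CPM in D0, 33685 and 40300 at 2MPT and 47282 and 26458 at 4MPT, lowest in the library where the members were highest, and did not pass against D0 (-0.69 at 2MPT, adjusted p = 0.1501). NEAT1 and KCNQ1OT1 were lower in the grafts at both stages, 2 of 4 listed nuclear-retained RNAs called at 2MPT and 3 of 4 at 4MPT. Of 8 immediate early genes 6 were called higher than in D0 at each stage, with FOS at 404 CPM in D0 and 1482 to 2646 in the grafts, highest in PFC_4MPT. Of 9 heat shock genes 0 were called higher and 3 lower at 2MPT, and 1 and 2 at 4MPT. Beside these counts, 27.2% of all genes were called higher and 21.1% lower at 2MPT against D0, and 28.7% and 21.4% at 4MPT. In PFC against HIP, all human cells, all 8 immediate early genes (median 0.52) and 8 of 9 heat shock genes (0.29) had positive fold changes. The 3 nuclear-retained RNAs tested had negative ones (-0.81), and 0 genes of these lists were called. Of the heat shock genes 1 was called higher in neuron-like and 2 in astrocyte-like cells, where 0.138% and 0.111% of all genes were called in either direction. The part of these lists in the members' levels was not tested.

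The nuclear genes most like the members in their pattern over 15 points, the 3 classes in 5 libraries, were RPL36AL (Pearson's r = 0.784), SMIM26 (0.769), EMC4 (0.749), HAX1 (0.736) and SEC61G (0.723). They were the first 5 of 3621 genes at 50 CPM or more, ranked by the correlation of log2 CPM of nuclear-encoded UMIs with the members' and other mitochondrial genes' sum. The points share libraries and depth, so no p is given.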

How the data were processed

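The 5 10x Genomics 3′ (version 3 kit) libraries of human brain organoids or grafts were analysed as deposited. The authors aligned the reads to a human genome (GRCh38), and the grafts also to a joint human and mouse genome, and deposited raw UMI counts per gene and barcode. The labels name Cell Ranger 3.1 and R 4.1.1, while the matrix headers name Cell Ranger 3.1.0 for D0 and 5.0.0 for the grafts. How reads within 2 overlapping genes were assigned is not given in the sources used here. All count columns were mapped to samples.

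Barcodes with over 500 UMIs, over 500 genes, a log10(genes)/log10(UMIs) ratio over 0.8 and, for grafts, over 80% human UMIs in the joint matrix were kept as human cells, with a mitochondrial share under 15% as the limit. No doublet caller was run, and barcodes of mixed species were left out. Counts of nuclear genes were normalised with sctransform 0.4.2 in Seurat 5.3.0 (R 4.3.3) and integrated across the libraries by reciprocal PCA. Clusters were made with 2500 variable genes, 40 principal components and resolution 0.8, and were named from marker lists. UMIs were summed per library and class. CPM is a count divided by all UMIs of these cells and scaled to 1000000.

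Sums were tested with edgeR 4.0.16 (quasi-likelihood test, TMM factors, filter on low counts, Benjamini-Hochberg adjustment over all genes tested, threshold 0.05), in 1 fit of D0, 2MPT and 4MPT and in 1 fit of the 4 grafts with site and stage. The graft fit for site leaves 1 residual degree of freedom. Alternatives were DESeq2 1.42.0, no filter, no limit or a limit of 0.10, cells over 1000 UMIs, a human share over 0.9, resolution 1.6, counts scaled to nuclear genes, the replicate block and leaving out each library. Library totals without TMM factors, nuclear scaling together with no limit, and subtraction of the host-barcode level were added after the data were seen. For 4MPT against 2MPT, the replicate block and the subtraction were fitted on the 4 grafts without D0. On simulated counts for 4MPT against 2MPT, over 19074 genes, 99 of 100 genes changed 4-fold and 33 of 100 changed 2-fold were found with 12 false calls. For PFC against HIP, over 18127 genes, 98 and 25 of 100 were found with 2 false calls. Intervals are exact at 95% and cover counting error only. Sequences and gene models come from the hg38 genome and GENCODE 44, read with Python 3.11.15 and scipy 1.17.1.

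The members, lists and tests were chosen with earlier results of these data known. All members are named, and of each list at most the 3 called genes with the largest fold change per comparison at 10 CPM or more, together with MALAT1, NEAT1, POLRMT, TFAM, LRPPRC and PPARGC1A. Labels do not pair the libraries of the 2 stages. HIP and PFC are shared names of sites, used as a block in an alternative.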

Additional observations from a re-analysis of the deposited data

Results flagged for a closer look

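The mitochondrial share of the human cells differed between the sites in opposite directions at the 2 stages, which is why it is listed here. The log2 ratio of PFC to HIP of the summed level was -0.66 at 2MPT and 1.23 at 4MPT, and 10 of 10 members were lower in PFC at 2MPT and 10 of 10 higher at 4MPT. One library stands behind each value, so the difference between the stages was not tested.

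Barcodes of host cells, which enter no comparison of human cells except where their level was subtracted, held human mitochondrial UMIs at 6.70% (HIP) and 6.002% (PFC) of their human UMIs at 2MPT and at 10.7% (HIP) and 24.5% (PFC) at 4MPT. The mouse mitochondrial genes of these barcodes were at 3.62%, 3.03%, 4.26% and 7.20% of the mouse UMIs, in the same order of libraries. No control library was given for either, and each is above the level that a count of 0 allows.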

How the results depend on the processing

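The number of members called depended on single libraries and on the tool. For 4MPT against 2MPT it went from 0 to 1 with DESeq2 and 8 with no filter on low counts in all human cells, and from 0 to 1 with DESeq2 in neuron-like cells. For 2MPT against D0 it went from 5 to 1 in all human cells and from 4 to 1 in progenitor-like cells without TMM factors, and from 3 to 5 in neuron-like cells with DESeq2. For 4MPT against D0 it went from 0 to 2 with no filter in all human cells, and from 1 to 0 in progenitor-like cells with no limit, with no limit and nuclear scaling, and with DESeq2. Leaving out 1 library also moved the number for 4MPT against 2MPT, 2MPT against D0 and 4MPT against D0, in each set of cells tested. Such a fit leaves 1 library in a stage, so its count of members called is not given. PFC against HIP kept 0 called members under each alternative run. Leaving out a library there leaves no residual degrees of freedom and was not run. The cause of these changes was not tested.

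With the graft site as a replicate block, 1 member was called for 4MPT against 2MPT in neuron-like cells (MT-ND2) against 0 without it, 0 in all human cells (MT-ND2, adjusted p = 0.0514 in edgeR's quasi-likelihood test) and 1 in astrocyte-like cells, as without it. The labels pair no libraries, so the block is a shared site name only. The fits with the block held the grafts only, while those without it also held D0, so the effects of the block and of leaving out D0 cannot be told apart. Over all genes the calls went from 457 to 733 in all human cells, 162 to 402 in neuron-like and 335 to 525 in astrocyte-like cells. Other counts of genes that moved by more than 1.5 times were, for 4MPT against 2MPT, 1347 with no filter, 258 after subtraction of the host-barcode level and 32 to 1508 without 1 library in all human cells, 87 to 804 in neuron-like and 137 to 824 in astrocyte-like cells without 1 library, and with DESeq2 299 in neuron-like and 145 in astrocyte-like cells. DESeq2 gave 3098 in place of 4738 and 3330 in place of 5144 for 2MPT and 4MPT against D0 in progenitor-like cells, and 4MPT against D0 there gave 3366 without HIP_4MPT. For PFC against HIP, 15 genes became 7 with DESeq2, 6 without TMM factors, 33 at a limit of 0.10, 36 with no filter, 5 in cells over 1000 UMIs and 0 after subtraction or with no stage in the fit, which also gave 0 in both classes. There 23 in neuron-like cells became 8 with DESeq2, 6 without TMM factors and 6 at resolution 1.6, and 13 in astrocyte-like cells became 4 with no limit and 2 with DESeq2, nuclear scaling or no TMM factors.

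The D0 shares moved by more than their counting interval but by little in size. In all cells the share was 4.09% with no limit and 3.83% at a limit of 0.10. In neuron-like cells it was 4.25%, 4.03% and, at resolution 1.6, 4.14%, in astrocyte-like cells 4.08% with no limit, and in progenitor-like cells 3.26% at a limit of 0.10 and 3.31% at resolution 1.6. With no limit the D0 composition had MT-CO1 at 20.7%, MT-CO2 at 15.1%, MT-ATP6 at 11.2% and MT-ND2 at 3.92%. In HIP_2MPT 0 cells over 1000 UMIs exceeded the limit. For single members called in the report, 28 alternatives lost the call, 128 kept it and none changed direction.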
